A study of Mus musculus with 18 samples.

Results

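The 8 genes described here encode adhesion molecules of the vessel wall: the selectins Selp and Sele, the immunoglobulin-family ligands Icam1, Icam2, and Vcam1, and the junction molecules Pecam1, Esam, and F11r. They were chosen by name with earlier results of these data known, so that counts of members beside shares of all genes are a description. They are 8 of the 34989 genes to which the transcripts in the files were summed. The 18 libraries came from LV and RV tissue of C57B/L6 mouse hearts, labelled as 12 weeks old, with 3 libraries for each ventricle after 0, 4, or 8 h of ice-cold storage in histidine-tryptophan-ketoglutarate (HTK) preservation solution. All hearts, including those at 0 h, had been flushed with HTK and were perfused ex vivo with Krebs buffer for 1 h before the tissue was frozen, so that the 0 h libraries are perfused and not fresh tissue. The perfusate was a buffer without blood. The methods of the study give a younger age and mice of both sexes, while sex is not among the labels. The labels do not state that libraries of a group came from separate mice, and the p-values measure only the spread between these libraries. The libraries held between 22552581 and 46236771 estimated counts, of which 22.7% to 34.4% were mitochondrial. The mitochondrial share was 24.1% to 28.3% at 0 h and 32.0% to 34.4% after 8 h in LV, and 22.7% to 32.6% and 33.3% to 34.2% in RV, without overlap in either ventricle. With mitochondrial genes left out, the same members were called in every comparison with 0 h.

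Leukocytes leave the blood in steps. P-selectin and E-selectin on activated endothelium slow the cells by binding glycans on the leukocyte, after which ICAM-1, ICAM-2, and VCAM-1 hold them through integrins, and PECAM-1, ESAM, and JAM-A (encoded by F11r) line the junctions through which they pass. P-selectin is stored in Weibel-Palade bodies of endothelial cells and in platelet granules, and its transcript, like those of E-selectin, ICAM-1, and VCAM-1, is induced by inflammatory cytokines. ICAM-2, PECAM-1, and ESAM are made by resting endothelium.

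The sequences upstream of the start sites are shown because 3 of the 4 members with the largest changes have an entry, and because they show where the letters of known binding motifs stand. RefSeq promoter entries of build GRCm38.p6 were matched for 4 members, Selp, Sele, Icam1, and F11r. Each run below is the 250 bases before the RefSeq start, 5′ to 3′ on the plus strand, and capitals mark matches to one of 5 motifs searched on both strands.
Selp, chr1:164115014-164115263: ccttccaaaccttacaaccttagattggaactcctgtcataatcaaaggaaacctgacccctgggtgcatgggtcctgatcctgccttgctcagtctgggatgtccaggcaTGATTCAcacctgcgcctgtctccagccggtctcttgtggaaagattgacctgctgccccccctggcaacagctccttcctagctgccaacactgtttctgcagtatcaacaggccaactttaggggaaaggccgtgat
Sele, chr1:164047984-164048233: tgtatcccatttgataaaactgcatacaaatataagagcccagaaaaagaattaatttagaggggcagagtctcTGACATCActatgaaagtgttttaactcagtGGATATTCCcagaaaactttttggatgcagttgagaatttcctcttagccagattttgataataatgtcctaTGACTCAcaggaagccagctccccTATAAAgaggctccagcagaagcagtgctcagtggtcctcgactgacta
Icam1, chr9:21015690-21015939: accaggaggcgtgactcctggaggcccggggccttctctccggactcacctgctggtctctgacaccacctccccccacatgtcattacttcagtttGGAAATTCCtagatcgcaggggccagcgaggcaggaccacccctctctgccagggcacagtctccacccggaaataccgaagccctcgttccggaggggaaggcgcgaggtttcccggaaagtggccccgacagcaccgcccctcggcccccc
F11r, chr1:171437311-171437560: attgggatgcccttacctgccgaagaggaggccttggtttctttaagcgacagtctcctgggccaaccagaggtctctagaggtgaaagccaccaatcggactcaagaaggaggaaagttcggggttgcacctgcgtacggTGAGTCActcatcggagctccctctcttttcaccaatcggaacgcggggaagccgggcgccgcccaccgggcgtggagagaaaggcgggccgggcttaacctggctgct
The motifs were the NF-kB consensus, a relaxed NF-kB form GGANNTTCC chosen after these promoters had been read, AP-1 as TGANTCA, a CRE-like form TGACNTCA, and TATAAA. They were counted separately. Sele held GGATATTCC at 145 to 137 bases before the start, TGACATCA at 176 to 169, TGACTCA at 73 to 67, and TATAAA at 49 to 44. Icam1 held GGAAATTCC at 153 to 145 bases before its start. Selp held the AP-1 form TGATTCA at 139 to 133 bases before its start, and F11r held TGAGTCA at 109 to 103. Among 32851 promoter entries of the same length, 3.59% held the relaxed NF-kB form, 6.75% the AP-1 form, 7.49% the CRE-like form, and 12.4% TATAAA. The NF-kB consensus, present in 7.25% of all entries, was found in 0 of the 4. These matches describe letters in the window and no binding was measured.

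Levels are given in CPM, the counts scaled to the TMM-adjusted library size, where TMM is a scaling that equalizes libraries on the bulk of their genes. Changes are log2 fold changes from edgeR's quasi-likelihood test on the 9 libraries of a ventricle. The SE beside a change was derived from that test, as the absolute log2 fold change divided by the square root of the F statistic. A call needed a fold change over 1.5 together with a p, adjusted by the Benjamini-Hochberg method, of less than 0.1. Because tissue was sequenced in bulk, fewer cells of a type and less RNA per cell cannot be told apart. Before storage the libraries were not alike in these genes. Replicate 1 at 0 h was the highest 0 h library of both ventricles in Selp, Sele, Icam1, and Vcam1, at 4.14 times the mean of the other LV libraries and 5.58 times that of the other RV libraries in Icam1. The ratio was 4.56 and 5.65 for Sele, 2.35 and 2.81 for Selp, and 1.85 and 2.52 for Vcam1. In the other 4 members the same library lay between 0.771 and 1.03 times the mean of the others. Among stored libraries, replicate 3 was the highest of its group in Selp, Icam1, Vcam1, and F11r at both storage times in both ventricles.

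After storage and reperfusion the selectins, Icam1, and Vcam1 were higher, and Icam2, Pecam1, and Esam were not called. In LV, Selp, Sele, and Vcam1 were called higher after 4 h, 3 of 8 members where 2.4% of all tested genes were, and the same 3 after 8 h, where 5.46% were. In RV, Icam1 was called as well after 4 h (4 of 8 members, against 6.17% of genes), and Icam1 and F11r after 8 h (5 of 8, against 13%). No member was called lower in these comparisons. The median log2 fold change of the 8 members was 1.09 and 1.39 in LV after 4 and 8 h, and 1.45 and 1.92 in RV, where the median over all tested genes lay between -0.07 and 0.00. Every stored library lay above every 0 h library of its ventricle in Selp, Sele, Icam1, and Vcam1. Counting F11r and Esam, this held in CPM for 4 members in LV after 4 h (12.9% of genes), 6 in LV after 8 h (15.5%), 5 in RV after 4 h (15.1%), and 5 in RV after 8 h (18.5%). In levels scaled by transcript length, given below, the F11r and Esam groups overlapped.

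**Figure D1:**
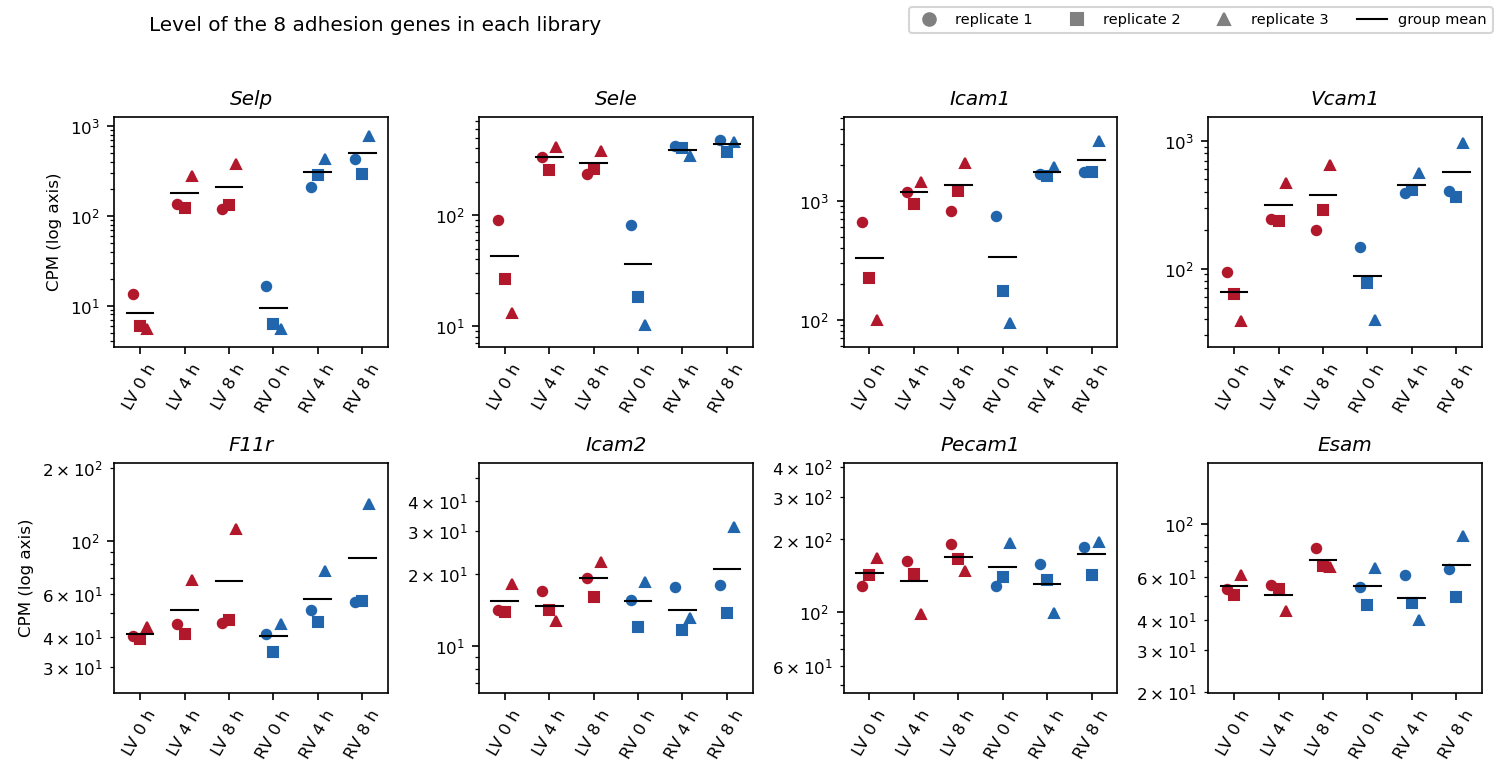
Level of each of the 8 genes in CPM on a log axis, whose range differs between panels, for the 3 libraries of each ventricle and storage time (LV red, RV blue). The symbol gives the replicate number and the bar the group mean. The stored libraries of Selp, Sele, Icam1, and Vcam1 all sit above the 0 h libraries, and replicate 1 is the highest at 0 h in these 4 genes.

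Selp (chromosome 1 of GRCm38, 164115264 to 164150026), the gene of P-selectin, moved the most of the 8. In LV it stood at 13.6, 5.98, and 5.57 CPM in replicates 1, 2, and 3 at 0 h, at 135, 124, and 275 CPM after 4 h, and at 121, 132, and 378 CPM after 8 h. In RV the 0 h libraries held 16.5, 6.26, and 5.52 CPM, the 4 h libraries 209, 285, and 428 CPM, and the 8 h libraries 426, 291, and 785 CPM. The lowest stored library, at 121 CPM, was thus well above the highest 0 h library of either ventricle. The RV log2 fold change was 5.04 (SE 0.60, edgeR adjusted p = 0.00443) after 4 h and 5.75 (SE 0.62, adjusted p = 0.00133) after 8 h. The LV values had adjusted p of 0.0213 after 4 h and 0.00898 after 8 h. The LV call at 4 h was lost without LV 0 h replicate 2 (log2 fold change 4.21, edgeR adjusted p = 0.157) and without LV 0 h replicate 3 (4.18, 0.108). The calls at 8 h in LV and at both times in RV held without any single library. The LV 8 h value of 4.65 was 3.90 without LV 8 h replicate 3, and the RV values were 5.73 and 6.43 without RV 0 h replicate 1.

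Sele (chromosome 1, 164048234 to 164057677), the gene of E-selectin and a neighbour of Selp, had the widest 0 h spread of the selectins. The LV libraries held 89.9, 26.4, and 13.1 CPM at 0 h, 333, 254, and 413 CPM after 4 h, and 235, 262, and 380 CPM after 8 h. The RV libraries held 80.9, 18.3, and 10.3 CPM at 0 h, 421, 405, and 339 CPM after 4 h, and 477, 374, and 459 CPM after 8 h. The stored libraries of RV were close together, with a highest value 1.24 times the lowest after 4 h and 1.27 times after 8 h, while the 0 h libraries differed 7.84-fold. In LV Sele rose by a log2 fold change of 2.95 (SE 0.62, edgeR adjusted p = 0.0613) after 4 h and 2.76 (SE 0.61, 0.0468) after 8 h, and in RV by 3.42 (SE 0.66, 0.0214) and 3.59 (SE 0.67, 0.0100). The LV 4 h call was lost without any of 5 libraries: LV 0 h replicate 2 (log2 fold change 2.70, adjusted p = 0.292), LV 0 h replicate 3 (2.52, 0.162), LV 4 h replicate 1 (2.95, 0.145), LV 4 h replicate 3 (2.76, 0.171), and LV 8 h replicate 2 (2.94, 0.102). The LV 8 h call was lost without LV 0 h replicate 2 (2.51, 0.195) or LV 8 h replicate 3 (2.51, 0.116), and the RV 4 h call without RV 0 h replicate 2 (3.10, 0.109). Without 0 h replicate 1, the high library, the Sele values were larger, at 4.08 and 3.89 in LV and 4.78 and 4.95 in RV.

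Icam1 (chromosome 9, 21015985 to 21028817), which encodes the ligand of the beta-2 integrins on leukocytes, had the highest mean level per transcript length of the 8 in every group. Its LV libraries held 670, 225, and 98.9 CPM at 0 h, 1187, 933, and 1450 CPM after 4 h, and 821, 1199.9, and 2076 CPM after 8 h. Its RV libraries held 748, 175, and 93.5 CPM at 0 h, 1679, 1618, and 1919 CPM after 4 h, and 1754, 1732, and 3164 CPM after 8 h. The LV groups did not overlap, yet Icam1 was not called there, with a log2 fold change of 1.85 (SE 0.62, edgeR adjusted p = 0.194) after 4 h and 2.05 (SE 0.62, 0.102) after 8 h. Without LV 0 h replicate 1, the high library, it was called at both times, with 2.88 (adjusted p = 0.0383) and 3.08 (0.0273), and without LV 8 h replicate 2 at 8 h (2.18, 0.0948). In RV Icam1 rose by 2.37 (SE 0.67, 0.0723) after 4 h and by 2.73 (SE 0.68, 0.0307) after 8 h. The RV 4 h call was lost without RV 0 h replicate 2 (2.06, 0.239) or 3 (1.92, 0.184), and without RV 4 h replicate 1 (2.40, 0.151), 2 (2.42, 0.134), or 3 (2.29, 0.145). The RV 8 h call was lost without RV 0 h replicate 2 (2.41, 0.123). Without RV 0 h replicate 1, the high library, the RV values were 3.72 (0.00389) and 4.07 (0.00223).

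Vcam1 (chromosome 3, 116109949 to 116129688), whose product binds the integrin VLA-4, held 94.3, 63.2, and 38.7 CPM in LV at 0 h, 243, 234, and 470 CPM after 4 h, and 202, 288, and 643 CPM after 8 h. In RV it held 147, 77.1, and 39.3 CPM at 0 h, 391, 412, and 561 CPM after 4 h, and 402, 364, and 957 CPM after 8 h. Replicate 3 was thus the lowest library at 0 h and the highest in each stored group. The LV log2 fold change was 2.27 (SE 0.50, edgeR adjusted p = 0.0716) after 4 h and 2.53 (SE 0.50, 0.0339) after 8 h, and the RV log2 fold change 2.39 (SE 0.53, 0.0346) and 2.74 (SE 0.54, 0.0125). The LV 4 h call was lost without LV 0 h replicate 2 (2.25, 0.307) or 3 (2.004, 0.275), without LV 4 h replicate 1 (2.43, 0.136), 2 (2.45, 0.102), or 3 (1.86, 0.213), and without LV 8 h replicate 2 (2.26, 0.110). The LV 8 h call was lost without LV 0 h replicate 2 (2.51, 0.165) or 3 (2.26, 0.118), and the RV 4 h call without RV 0 h replicate 2 (2.30, 0.151) or 3 (2.04, 0.123). Without 8 h replicate 3 the 8 h values were 1.89 in LV and 2.13 in RV, and without RV 0 h replicate 1 the RV values were 2.99 and 3.33.

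F11r (chromosome 1, 171437535 to 171464603), the gene of junctional adhesion molecule A, spanned a narrow range at 0 h and was highest in replicate 3 of every stored group. Its LV libraries held 40.2, 39.3, and 43.8 CPM at 0 h, 45.1, 41.1, and 68.8 CPM after 4 h, and 45.8, 46.9, and 112 CPM after 8 h. Its RV libraries held 41.0, 34.7, and 45.1 CPM at 0 h, 51.7, 46.1, and 75.0 CPM after 4 h, and 55.6, 56.5, and 142 CPM after 8 h. After 8 h replicate 3 was far above the other libraries of its ventricle, which lay close to each other. The RV 8 h log2 fold change was 1.10 (SE 0.38, edgeR adjusted p = 0.0871), the only call for F11r. Without RV 8 h replicate 3 it was 0.48 (adjusted p = 0.213), and the call was also lost without RV 0 h replicate 1 (1.12, 0.169), 2 (1.00, 0.245), or 3 (1.18, 0.171), and without RV 4 h replicate 1 (1.09, 0.109) or 2 (1.10, 0.114). In LV the 8 h value was 0.74 (SE 0.34, 0.235), with no overlap between the groups in CPM.

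Icam2, Pecam1, and Esam were not called in any of the 11 comparisons. Icam2 (chromosome 11, 106377656 to 106388075), an ICAM-1 relative on unstimulated endothelium, lay between 11.7 and 31.3 CPM over the 18 libraries. Its 8 h log2 fold change was 0.32 (SE 0.17, edgeR adjusted p = 0.296) in LV and 0.48 (SE 0.32, 0.312) in RV. Pecam1 (chromosome 11, 106654217 to 106750628), which encodes the junction protein also known as CD31, lay between 97.7 and 196 CPM, with 8 h values of 0.22 (SE 0.20, 0.529) and 0.20 (SE 0.24, 0.562). Both 4 h replicate 3 libraries, at 97.7 CPM in LV and 99.0 CPM in RV, were the lowest for Pecam1. Esam (chromosome 9, 37528078 to 37538319), an adhesion molecule of endothelial tight junctions, held 53.6, 50.5, and 61.0 CPM in LV at 0 h and 79.1, 66.7, and 66.4 CPM after 8 h. The groups did not overlap in CPM, but the log2 fold change of 0.37 (SE 0.14, edgeR adjusted p = 0.153) was not called. In RV the Esam libraries held 54.7, 46.2, and 65.2 CPM at 0 h and 64.8, 49.5, and 88.8 CPM after 8 h, and overlapped.

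**Figure D2:**
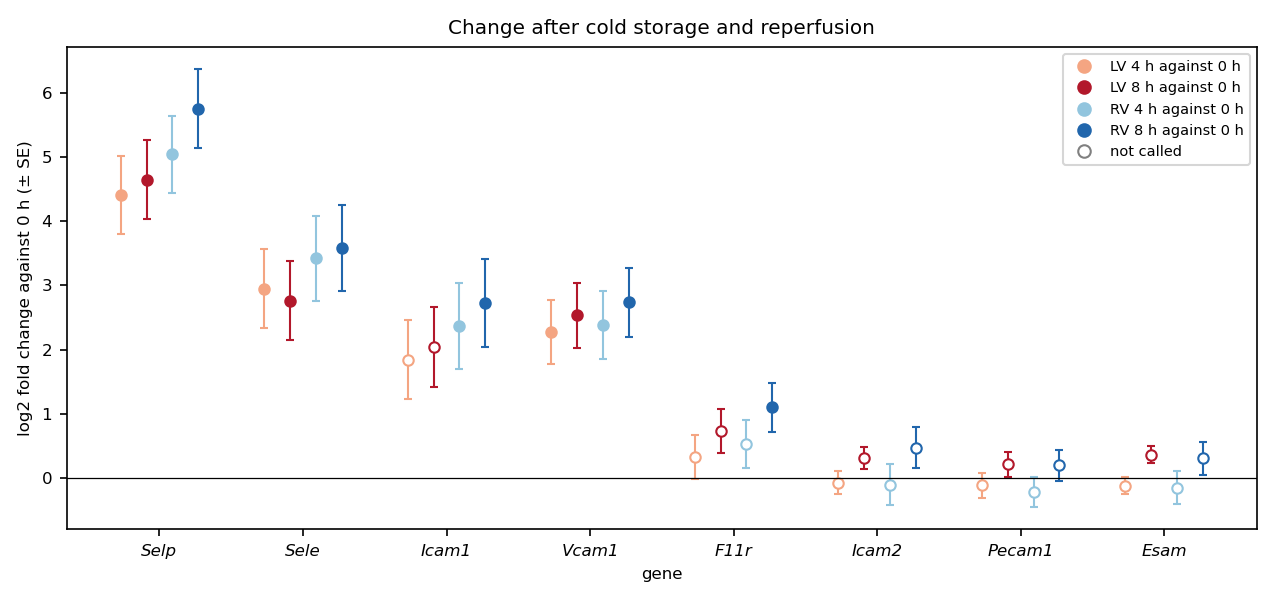
Log2 fold change against 0 h of each gene with its standard error, derived from the F statistic, for both ventricles after 4 and 8 h. Filled points were called and open points were not. Selp lies highest, from 4.40 to 5.75, Icam2, Pecam1, and Esam lie between -0.21 and 0.48, and Icam1 is open in LV.

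No member was called between 8 and 4 h in LV or RV, comparisons in which edgeR called 0% of genes in each ventricle. At an unadjusted p under 0.05 there was 1 member in LV, where 1180 of 14564 tested genes were, and 0 in RV, where 961 of 14622 were. DESeq2 called 0 members in either, and 0.474% and 0.335% of genes. The 1 member was Esam, whose LV 8 h libraries all lay above those at 4 h in CPM (5.38% of genes did so), with a log2 fold change of 0.48 (SE 0.14, edgeR adjusted p = 0.551). The Selp log2 fold change between 8 and 4 h was 0.24 (SE 0.52) in LV and 0.71 (SE 0.50) in RV.

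Per transcript length, in TPM (counts scaled by transcript length within a library), the order of the members changed with storage. At 0 h in LV the mean TPM fell from Icam1 (176 ± 156, SD, n = 3) over Pecam1 (58.2 ± 7.22), Esam (46.7 ± 2.80), Vcam1 (27.7 ± 10.98), F11r (26.2 ± 1.96), Icam2 (19.6 ± 1.82), and Sele (19.4 ± 18.2) to Selp (4.20 ± 2.09). Icam1 overlapped Pecam1 in that order, Vcam1 overlapped F11r, Icam2 overlapped Sele, and Sele overlapped Selp. After 8 h in RV the order was Icam1 (892 ± 282), Vcam1 (174 ± 85.8), Selp (157 ± 71.9), Sele (152 ± 17.1), Pecam1 (54.5 ± 7.35), Esam (41.0 ± 9.55), F11r (40.3 ± 22.6), and Icam2 (19.0 ± 7.97). There Icam1 stood above Vcam1 and Sele above Pecam1 without overlap, and every other neighbouring pair overlapped. Selp, the lowest of the 8 by mean at 0 h, overlapped Vcam1 and Sele after 8 h in RV. The summed TPM of the 8 genes ran from 220 to 691 at 0 h and from 752 to 2083 in stored libraries. Selp, Sele, Icam1, and Vcam1 took 76.0%, 53.1%, and 31.6% of that sum in LV replicates 1, 2, and 3 at 0 h and 78.0%, 51.6%, and 29.4% in RV. In stored libraries they took 77.4% to 91.9%. The summed TPM of the other 4 members stayed between 116 and 204 in all 18 libraries. Stored libraries also lay above 0 h in TPM for Selp, Sele, Icam1, and Vcam1, while F11r and Esam overlapped. F11r ran from 24.0 to 27.6 TPM at 0 h and 25.2 to 56.1 TPM after 8 h in LV. Its RV values were 21.9 to 28.7 TPM and 26.4 to 66.4 TPM. Esam in LV ran from 45.0 to 49.9 TPM at 0 h, 29.5 to 44.3 TPM after 4 h, and 40.0 to 56.7 TPM after 8 h.

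**Figure D3:**
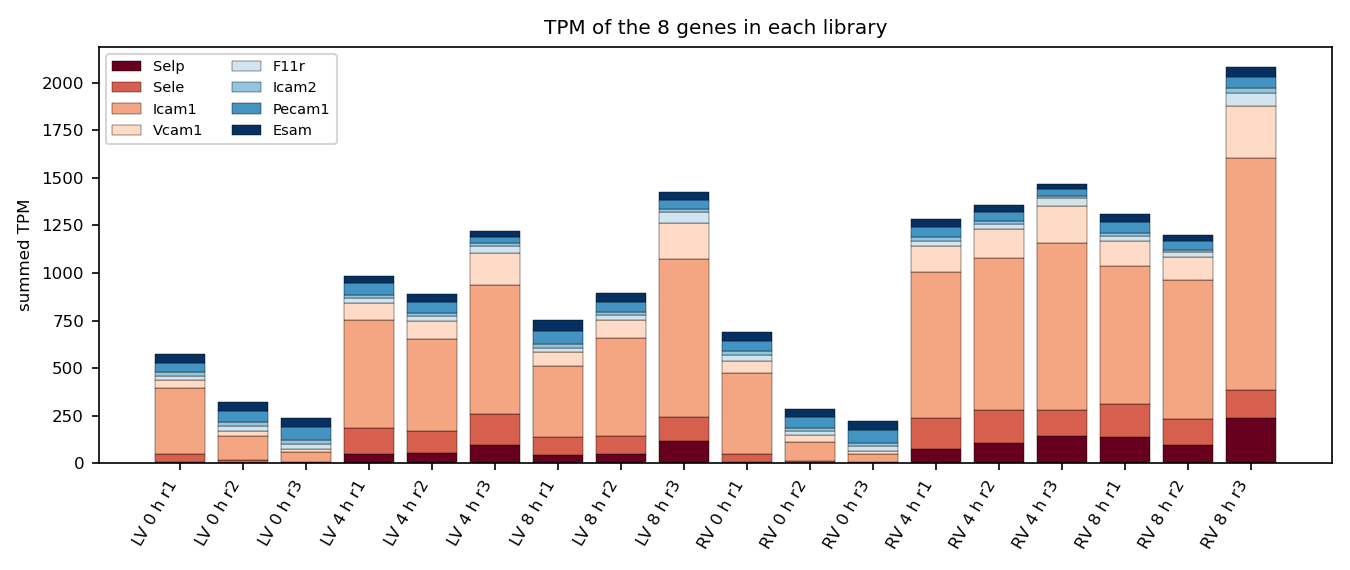
TPM of the 8 genes stacked for each library, with r1 to r3 the replicate number. The red shades (Selp, Sele, Icam1, and Vcam1) make up most of the height in stored libraries, while the blue shades (F11r, Icam2, Pecam1, and Esam) sum to between 116 and 204 TPM throughout.

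Endothelial transcripts of the bulk tissue were followed through 12 markers, all detected in every group. Their summed level ran from 937 to 1421 CPM at 0 h and from 720 to 1484 CPM in stored libraries, so that the ranges overlapped. Set against the mean log2 level of these markers in the same library, Selp was 4.34 higher after 8 h than at 0 h in LV and 5.49 higher in RV, on a log2 scale with a pseudocount of 1. The corresponding shift was 3.08 and 3.93 for Sele, 2.31 and 3.08 for Icam1, 2.37 and 2.63 for Vcam1, and 0.54 and 0.79 for F11r. It was at most 0.31 for Icam2, Pecam1, and Esam at either storage time. Within the marker list, Ecscr was called higher in LV, and in RV Ecscr and Robo4 were called higher and Egfl7 lower after 8 h. After 4 h, 2 of the 12 were called lower in RV, where 3.91% of genes were, so the reference itself moved. Which cells the member transcripts came from was not tested.

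Some markers of blood cells and macrophages were also called higher in stored tissue. The summed level of 7 neutrophil markers ran from 1.76 to 3.46 CPM at 0 h, 3.92 to 10.4 CPM after 4 h, and 10.6 to 20.1 CPM after 8 h. Of the 7, 4 were high enough to be tested in LV and 2 in RV. Csf3r, the G-CSF receptor, rose by 2.52 in LV and 2.88 in RV on the log2 scale after 8 h (edgeR adjusted p = 0.00585 and 0.00226). S100a8 and S100a9 were called higher in LV, at 1.54 ± 1.34 and 3.10 ± 2.89 CPM after 8 h (SD, n = 3), were too low to be tested in RV, and Ly6g did not exceed 0.123 CPM. The summed level of 7 leukocyte and macrophage markers ran from 145 to 289 CPM at 0 h and from 211 to 444 CPM after 8 h. Ptprc, Cd14, and Fcgr1 were called higher in both ventricles and Adgre1 in RV, while Cd68, Csf1r, and Lyz2 were called in neither. The mean of Csf1r was 36.5 CPM at 0 h and 32.8 CPM after 8 h in LV, and 44.9 and 40.7 CPM in RV. The summed level of 8 platelet markers ran from 7.70 to 15.4 CPM at 0 h and from 10.6 to 31.2 CPM after 8 h, most of it Pf4. Only 3 of the 8 were tested in LV, with 0 called. In RV 4 were tested and 1 (Itga2b) was called higher, where 13% of genes were. Pf4 lay between 6.26 and 27.6 CPM and Itga2b between 0.707 and 2.87 CPM, and Gp9, Gp1ba, and Treml1 did not exceed 0.123 CPM in any library. Red cell markers ran from 1.76 to 4.49 CPM at 0 h and from 2.62 to 135 CPM after 8 h, with Hbb-bs and Hbb-bt called higher in LV. The part of these cells in the member changes was not tested. The 6 lymphocyte markers summed to at most 1.44 CPM. Mesothelial markers lay between 12.2 and 59.5 CPM, fibroblast markers between 548 and 1359 CPM, smooth muscle and pericyte markers between 621 and 1286 CPM, and cardiomyocyte markers between 26451 and 63323 CPM. The cardiomyocyte sum was 52029 to 63323 CPM at 0 h and 38793 to 45536 CPM after 8 h in LV, and 54829 to 62918 CPM and 26451 to 51623 CPM in RV, and its part in the member changes was not tested. Among these 4 lists the only calls after 8 h were Myh6 lower in LV, Tcf21 higher and Kcnj8 lower in RV.

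The transcripts quantified for the members give a further description. Icam1 had 2, the protein-coding Icam1-201 and the retained-intron transcript Icam1-202, which keeps intron sequence and takes part of the counts. Icam1-202 took 6.64% to 15.1% of the Icam1 counts in LV at 0 h and 7.90% to 13.1% in RV, against 2.74% to 4.84% in stored LV and 2.59% to 3.38% in stored RV libraries. The retained-intron transcript Vcam1-204 took 3.70% to 7.43% of the Vcam1 counts at 0 h and 1.62% to 3.22% after storage. The protein-coding Selp-205 took 91.3% ± 1.97 (SD, n = 3) of the Selp counts in LV at 0 h and 92.5% ± 5.82 in RV, and group means of 96.5% to 98.4% after storage. Kallisto divides reads between transcripts by estimation, so these shares carry no test. Esam-201, F11r-201, and Icam2-201 took 93.7% to 98.7% of their genes in every group mean. Pecam1 counts were split among 3 main protein-coding transcripts, with 33.4%, 32.8%, and 26.5% over all libraries. Sele had a single transcript.

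RV libraries of the stored hearts held more Selp, Icam1, Vcam1, and F11r transcript than LV libraries of the same number in 6 of 6 pairs. They held more Sele in 5 of 6. The share of all genes with such pair counts was not computed, so the counts describe the members only. For Selp the RV level was 2.08, 2.20, and 3.53 times the LV level in the 3 pairs after 8 h, 1.55 to 2.30 times after 4 h, and 0.991 to 1.22 times at 0 h. For Icam1 it was 1.44 to 2.14 times after 8 h, 1.32 to 1.73 times after 4 h, and 0.777 to 1.12 times at 0 h. Sele went from 0.694 to 0.900 times at 0 h, with RV the lower ventricle in all 3 pairs, to 1.21 to 2.03 times after 8 h, with RV the higher in all 3. Vcam1 was higher in RV in all 9 pairs, at 1.01 to 1.55 times at 0 h and 1.26 to 1.997 times after 8 h, and F11r was 1.20 to 1.26 times as high in RV after 8 h.

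**Figure D4:**
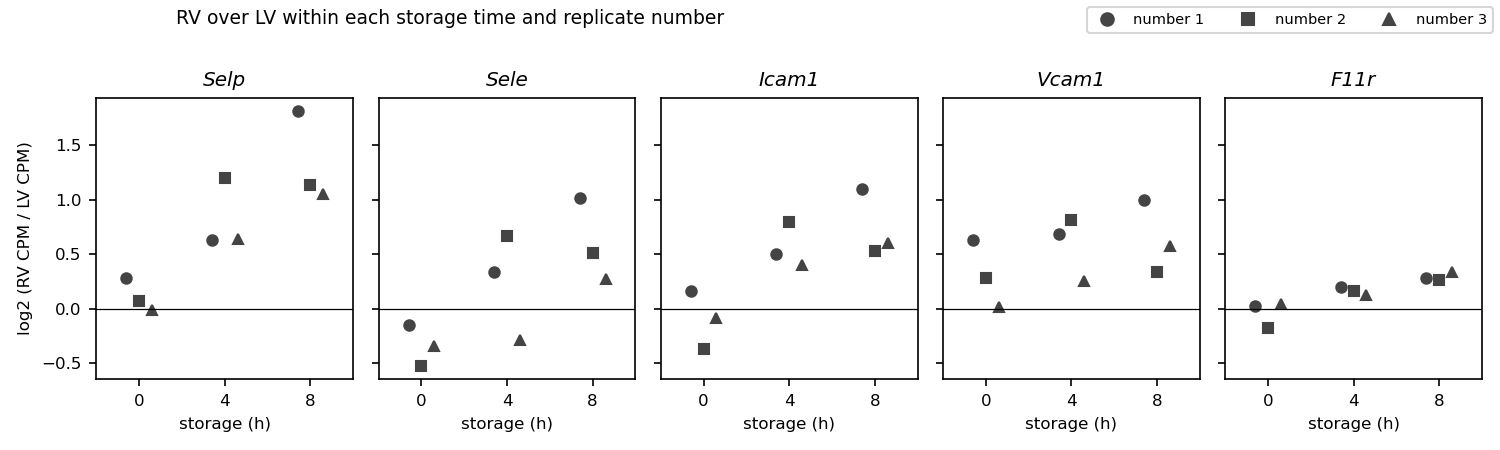
Log2 ratio of the RV to the LV level of 5 genes within each storage time, where each symbol is the pair of libraries with the same replicate number and 0 means equal levels. All 8 h points lie above 0, and the 0 h points of Sele lie below it.

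Without the pairing no member was called between ventricles at 0 h (0.159% of genes called), 4 h (0.0133%), or 8 h (0.0331%). DESeq2 also called 0 members in these comparisons, and 0.411%, 0.166%, and 1.25% of genes. The counts at an unadjusted p under 0.05 were 0, 0, and 1 of 8 members, against 484, 446, and 1669 of 15093 genes, the 1 being Selp at 8 h, with an LV minus RV log2 difference of -1.25 (SE 0.56, edgeR adjusted p = 0.422). Icam1 was the only member whose groups did not overlap, all LV libraries lying below all RV libraries at 4 h, as in 4.62% of genes. Same-numbered libraries of the ventricles deviated together from their group means and were taken as pairs. With the replicate block, 0 members were called at 0 h (1.85% of genes), Selp and Vcam1 were called lower in LV at 4 h (2 of 8, against 1.09%), and Selp, Sele, Icam1, and Vcam1 at 8 h (4 of 8, against 6.53%). The 8 h differences were -1.34 for Selp (SE 0.15, edgeR adjusted p = 0.000376), -0.60 for Sele (SE 0.17, 0.0274), -0.74 for Icam1 (SE 0.14, 0.00329), and -0.64 for Vcam1 (SE 0.15, 0.0121). Without the 8 h pair of number 1, only Selp was called at 8 h (-1.09, adjusted p = 0.00450), with Sele at -0.39 (0.202), Icam1 at -0.57 (0.0389, fold below 1.5), and Vcam1 at -0.45 (0.104). At 4 h the Vcam1 difference of -0.59 (edgeR adjusted p = 0.0670) lay at the fold threshold and was called among these fits only in the full set and without the 0 h pair of number 1. Icam1 at 4 h was -0.57 (0.0573), below that threshold. Without the 4 h pair of number 2 neither member was called at 4 h (Selp -0.64, adjusted p = 0.2).

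The difference between ventricles in their change from 0 h was tested as well. Without the block it was called for 0 members at 4 h and 0 at 8 h, with 0% of genes called in each, 0 members at an unadjusted p under 0.05, and 0 members by DESeq2. With the block, 0 members were called for the 4 h change (0.305% of genes) and 3 for the 8 h change, all with a smaller rise in LV (4.72% of genes). These were Selp, with a difference of -1.21 (SE 0.23, edgeR adjusted p = 0.0101), Sele, with -0.94 (SE 0.25, 0.0463), and Icam1, with -0.84 (SE 0.19, 0.0253). The Selp call held without any single pair. Sele was not called without the 0 h pair of number 1 (-1.04, 0.103), 2 (-0.84, 0.158), or 3 (-0.94, 0.117), or without the 8 h pair of number 1 (-0.73, 0.151), and Icam1 was not called without the 0 h pair of number 2 (-0.70, 0.114). The 6 venous and endocardial markers, among them Vwf, had a higher summed level in every RV library than in any LV library of the same time, with values of 103 to 127 CPM in LV and 222 to 267 CPM in RV at 0 h, and 119 to 184 CPM and 209 to 386 CPM after 8 h. The part of venous and endocardial cells in the differences between ventricles was not tested. Ackr1, which marks venules, rose by 4.41 in LV and 4.51 in RV on the log2 scale after 8 h (edgeR adjusted p = 0.041 and 0.01), from 0.102 and 0.118 CPM to 2.13 and 2.69 CPM, and the other calls in that list were Plvap, higher in LV, and Lyve1 and Npr3, higher and lower in RV.

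Around the members, 7 lists of the adhesion pathway, also chosen with earlier results of these data known, were examined at 8 h against 0 h. In that comparison 5.46% of all genes were called higher and 1.26% lower in LV, and 13% and 5.26% in RV. Of 16 NF-kB components and endothelial regulators, 9 were called higher in LV and 15 in RV, and 0 lower in either, with a median log2 fold change of 1.40 and 2.10. Nfkbie, an inhibitor of NF-kB that NF-kB itself induces, rose by 2.58 in LV (edgeR adjusted p = 0.0336) and 3.04 in RV (0.00617). Relb, an NF-kB subunit, rose by 1.74 and 2.37, and Tnfrsf1b, the second TNF receptor, by 1.76 and 2.33. Tnfaip3, the feedback inhibitor A20, rose by 2.52 in RV (0.0149), and its LV value of 1.58 was not called (0.123). The 1 gene not called in RV was Nos3, endothelial nitric oxide synthase, at 0.60 (0.358), named after its value was seen. With the replicate block 14 of the 16 were called lower in LV than in RV at 8 h, where 6.53% of genes were.

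The leukocyte side was measured through genes of selectin ligands and integrins. Of 14 genes for selectin ligands and the enzymes that glycosylate them, 12 were tested in LV with 2 called higher, and 11 in RV with 2 higher and 1 lower. Cd44, a hyaluronan receptor that can carry selectin-binding glycans, rose by 1.58 in LV (edgeR adjusted p = 0.0343) and 2.24 in RV (0.00364). In RV Cd24a rose by 1.02 (0.0193), and Gcnt1, an enzyme that builds selectin-binding glycans, fell by 0.91 on the log2 scale (0.0567). Of 9 leukocyte integrin genes, 8 were tested and 1 was called in each ventricle, Itgax in LV (1.39, 0.0581) and Itgam in RV (0.94, 0.0361), both alpha subunits of beta-2 integrins.

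In the remaining lists few genes were called. Of 9 genes for Weibel-Palade body content and release, Plat, which encodes tissue plasminogen activator, rose by 1.42 in LV (edgeR adjusted p = 0.0171) and 2.24 in RV (0.00176). Of 13 other endothelial adhesion genes, 11 were tested in LV and 10 in RV. Icam4 was called in LV (1.48, 0.0727, against 1.09, 0.157, in RV), and Pvr, the poliovirus receptor, in RV (1.57, 0.00569, against 0.67, 0.128, in LV). Of 11 junction genes, 0 of 10 tested were called in LV and 1 of 11 in RV. Of 7 genes for enzymes of adhesion molecule shedding and their inhibitor, Adam8 rose in both ventricles (1.74, 0.0459, and 1.78, 0.0195), and Adam17, a sheddase of VCAM-1, rose by 0.72 in RV (0.0110).

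The genes whose log2 levels over the 18 libraries were most like each member are given as a description, among 9970 genes with a mean of at least 5 CPM. The points share libraries, storage groups, and depth. For Selp these were Olr1 (Pearson r = 0.990), Clec4e (0.986), and Cxcl16 (0.985), and for Sele Ccl2 (0.992), Stx11 (0.984), and Tnfaip2 (0.983). Icam1 was nearest to Csf1 (0.996), Tnfaip3 (0.994), and Nod2 (0.985), and Vcam1 to Nfkbie (0.988), Irak2 (0.987), and Ccl5 (0.985). F11r was nearest to Zc3h7a (0.982), Arl6ip1 (0.982), and Psme2 (0.982). Icam2, Pecam1, and Esam had lower values and other neighbours. These were Zdhhc18 (0.907), Pparg (0.904), and Mmrn2 (0.898) for Icam2, and Zdhhc20 (0.939), Ltbp4 (0.918), and Cdkn1c (0.912) for Pecam1. For Esam they were Acer2 (0.945), Rras (0.931), and Tie1 (0.927). Among the members, Sele and Icam1 were the most alike (r = 0.975), also in their deviations from the group means (0.958), and Selp and Vcam1 had an r of 0.970 (0.928 for deviations). Esam and Icam2 (0.896) and Esam and Pecam1 (0.863) were alike, and the correlations of Pecam1 with Selp, Sele, Icam1, and Vcam1 lay between -0.17 and -0.05, and between -0.59 and -0.47 for deviations from the group means.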

How the data were processed

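The RNA-seq data comprised 18 libraries of LV and RV tissue. The authors deposited, per library, transcript-level estimated counts made with Kallisto on GRCm38 transcripts and not normalized between libraries, and beside them TPM values, scaled within each library, and transcript lengths. The estimated counts of 110203 of 111462 transcripts were added up per gene, matching transcript identifiers to GENCODE M21, and rounded. In R 4.3.3, edgeR 4.0.16 was used for the filter on low counts (filterByExpr), the TMM scaling, and the quasi-likelihood test. This left 14564 genes in LV (9 libraries), 14622 in RV (9 libraries), and 15093 for the comparisons between ventricles (18 libraries). P-values were adjusted over all genes tested. The TPM values as deposited were summed per gene for levels between genes only. The division of reads between overlapping transcripts is an estimate, and the counts are not independent molecules, so that tests rest on the spread between libraries. The test was checked on simulated counts with known changes.

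Groups and numbers are from the labels. Whether same-numbered libraries pair was decided from the correlation of their deviations from the group means. Every same-numbered pair exceeded 0.1 between LV and RV of a storage time (9 pairs, 0.325 to 0.697), and in RV between 0 h and stored libraries. In LV between 0 h and stored libraries it did not, with a lowest value of -0.019. Same-numbered libraries of 4 and 8 h also deviated together, at 0.358 to 0.568 in LV and 0.327 to 0.487 in RV. The labels do not say what a number stands for across storage times. The alternatives were DESeq2 1.42.0, RLE size factors, library totals alone, transcript-length offsets, no filter on low counts, removal of mitochondrial genes, other thresholds, the replicate block, all 18 libraries in the fit, and each library left out. Leaving out both libraries of a storage time and number in the block fit was chosen after seeing the data. The named genes were the members, up to 4 genes of each list called at 8 h with the largest mean change over both ventricles, and the 3 genes most correlated with each member. Some genes that the lists and this rule cover are counted but not reported here by name. The members and the lists were chosen with earlier results of these data known. Promoter sequences were from RefSeq entries of GRCm38.p6. Python 3.11.15 with pandas 2.3.3 was used for summing transcripts.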

Additional observations from a re-analysis of the deposited data

Results flagged for a closer look

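The rise from 0 h to 8 h was smaller in LV than in RV for 3 members when the difference was tested with libraries of the same number paired. The LV minus RV difference in the log2 change was -1.21 for Selp, -0.94 for Sele, and -0.84 for Icam1, with edgeR adjusted p of 0.0101, 0.0463, and 0.0253. In the 8 h pairs, which this test also used, the RV level exceeded the LV level in 3 of 3 for each of these genes. Without the pairing the differences were -1.08, -0.82, and -0.67, and none was called (edgeR adjusted p = 1 for each, 0 of 8 members at an unadjusted p under 0.05, and 0 members by DESeq2). Groups of 3 libraries were not tested for outlying samples.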

How the results depend on the processing

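Of 2352 values of single members under the alternatives, 2234 kept their side of the threshold, 37 lost a call, 81 gained one, and 0 calls reversed. Among the 2234 were 126 values that were not called and changed sign. With each library left out in turn, 0 to 4 members were called in LV after 4 h, 1 to 4 in LV after 8 h, 1 to 4 in RV after 4 h, and 3 to 5 in RV after 8 h, and 0 in each of the other comparisons without the block. In the same fits of the ventricle 0.101% to 5.66%, 0.959% to 13%, 2.15% to 13.9%, and 8.45% to 30.9% of all genes were called. At an adjusted p under 0.05 only 1 member, Selp, was called in LV after 4 h. The count in LV after 8 h was 4 in place of 3 with DESeq2, library totals alone, and no filter, through Icam1 (adjusted p of 0.0445, 0.0849, and 0.0846). Transcript-length offsets left 4 in RV after 8 h, without F11r (1.10, 0.102).

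With the replicate block, 2 members were called between ventricles at 4 h, 4 at 8 h, and 3 for the difference in the 8 h change. With both libraries of a storage time and number left out, a choice made after seeing the data, these became 0 to 2, 1 to 4, and 1 to 3, and 1 member (Icam1, adjusted p = 0.0819) was called for the 4 h change without the 8 h pair of number 3. In LV, where the numbers were not taken to pair 0 h with stored libraries, the block gave the same 3 calls after 4 h and 4 after 8 h (Icam1 2.21, adjusted p = 0.0904). Between 8 and 4 h the block called 0 members in either ventricle, with 0.00687% of genes called in LV and 0% in RV. The block changed no other call of a member. With 3 libraries a group, the wide 0 h spread of Sele, Icam1, and Vcam1 enters each of their calls.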
